A study of Homo sapiens with 18 samples.

Results

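The genes that epithelial cells use to bind antibodies and carry them from one surface to the other were followed, 10 in number, in OVCAR3, an established cell line of high-grade serous ovarian carcinoma. They are 4 antibody receptors and related proteins (PIGR, FCGRT, TFRC and TRIM21), 3 Rab GTPases of recycling endosomes and exocytosis (RAB11A, RAB25 and RAB3B), the motor MYO5B, the raft protein MAL2 and the kinase YES1. The rule names these 10 of the 55765 gene symbols counted and uses no measured value. The genes were chosen, however, with earlier results of these data known. Cells grew in medium with 2% serum. In the first series they received human IgA or human IgG of no chosen specificity at 0.5 µg/ml for 24 h, or no antibody (Untreated). In the second series they received monoclonal IgA against TSPAN7, a tetraspanin (TSPAN7 IgA), or against BDNF, a neurotrophin (BDNF IgA), at that dose and time, or again no antibody. Both monoclonal antibodies came from immortalised B cell clones of ovarian tumours. Each of the 6 groups had 3 libraries of total RNA, and every group was the same cell line, so the values describe a single tumour line in monolayer culture. The labels do not say whether replicates were separate cultures, and p-values then measure only the spread between these libraries.

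The polymeric immunoglobulin receptor, encoded by PIGR, binds dimeric IgA at the basolateral surface of epithelia, travels through endosomes to the apical surface, and is cleaved there to release IgA with the secretory component. The neonatal Fc receptor, whose heavy chain is FCGRT and whose light chain is B2M, binds IgG in acidic endosomes and returns it to the surface. The transferrin receptor TFRC imports iron and also binds IgA1, and TRIM21 is a cytosolic ubiquitin ligase that recognises the Fc part of antibodies that have entered the cell. RAB11A and RAB25 mark apical recycling endosomes, MYO5B is their actin motor, RAB3B binds the cytoplasmic tail of pIgR, MAL2 is needed for basolateral-to-apical transcytosis, and YES1 is a Src family kinase that acts downstream of IgA binding to pIgR.

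Sequence elements are shown for the receptor genes whose RNA is known to be set by such elements. Iron-responsive elements, hairpins bound by the iron regulatory proteins ACO1 and IREB2, lie in the 3′ untranslated region of TFRC, and their binding protects that RNA from decay. A search for a C, 5 letters, a loop of CAGTG and then A, C or T, and 5 letters that pair with the earlier 5 (G with T allowed), found 4 matches in TFRC. Of 19031 untranslated regions searched on the sense strand, 97 (0.51%) held at least 1 match, and TFRC was the only sequence with at least 3. Each is given as 29 bases of GRCh37, minus strand, with the unpaired C and the 6-base loop in capitals. The first lies at chr3:195777850-195777878, the next at chr3:195777446-195777474, the third at chr3:195777381-195777409 and the fourth at chr3:195777334-195777362.
TFRC element 1: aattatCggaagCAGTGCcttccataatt
TFRC element 2: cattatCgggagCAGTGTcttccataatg
TFRC element 3: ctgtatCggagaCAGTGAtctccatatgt
TFRC element 4: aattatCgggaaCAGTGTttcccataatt
Interferon-stimulated response elements are the other kind shown, because interferon-responsive factors are known to act on TRIM21 and PIGR. RefSeq promoters, from 250 bases before to 50 after the start on GRCh38.p14, were held for 9 of the 10 genes, all but MAL2. The core GAAA, any 2 letters, GAAA, on either strand, occurred in 3.57% of 35116 promoters. TRIM21 was the single member of those 9 with it, as 2 overlapping copies at bases 18 to 33 with the start counted as 1, in capitals in the 30 bases of chr11:4393663-4393692 on the minus strand.
TRIM21 element: ctgagcgGAAACTGAAAGTGAAAtagggag
PIGR had no match to that core in this window, nor to the E-box CACGTG, which occurred in 7.26% of promoters and in 0 of the 9 members. A looser NF-kB type motif, GGG, any 5 letters, CC, occurred in 58.7% of promoters and in 7 of the 9. PIGR and TRIM21 were the members without it in this window.

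The libraries held 27920733 to 42371474 counts each with non-specific antibodies and their controls, and 39254350 to 47381836 with antigen-specific IgA and its controls. A floor of 3 counts corresponded to 0.0708 to 0.107 CPM (counts scaled to a common library total) and 0.0633 to 0.0764 CPM, and such limits cover counting error only. IgA replicate 3 stood apart, with 19.1% of its counts from mitochondrial genes against 5.75% to 8.32% in the other libraries of its series, and it was the shallowest. All 8 epithelial ovarian carcinoma markers (EPCAM, KRT7, KRT8, KRT18, CDH1, PAX8, WT1 and MUC16) were well above the floor in every library, with a summed level of 4301 to 7127 CPM. Defining markers of B and T cells (MS4A1, IGHA1, IGHG1 and CD3D) had 0 to 2 counts. PTPRC, CD14 and CD68 reached at most 56 counts in a library. The collagen genes COL1A1 and COL1A2 were expressed at 514 to 3160 counts, whereas the other 2 fibroblast markers, DCN and PDGFRB, had at most 16. Both series came from separate count tables, so groups were compared only within a series.

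Within a library the 10 genes covered a range of more than 2 orders of magnitude, and PIGR was the lowest of them in every group. Levels between genes were compared as CPM per kilobase of the canonical GENCODE transcript. In untreated cells of the first series the mean level was 105 ± 4.18 for MAL2, 72.3 ± 7.64 for TFRC, 60.3 ± 5.74 for RAB25, 58.3 ± 0.150 for YES1 and 43.9 ± 1.93 for RAB11A (SD, n = 3). MYO5B followed at 9.75 ± 0.798, FCGRT at 4.16 ± 0.655, TRIM21 at 3.52 ± 0.451, RAB3B at 1.63 ± 0.242 and PIGR at 0.199 ± 0.0478. Among these neighbours, TFRC and RAB25, RAB25 and YES1, and FCGRT and TRIM21 overlapped between libraries. The others did not. In untreated cells of the second series the order was TFRC at 109 ± 3.61, MAL2 at 72.6 ± 0.597, YES1 at 57.5 ± 1.51, RAB11A at 43.4 ± 1.61 and RAB25 at 29.5 ± 2.45. Below them came MYO5B at 7.79 ± 0.0318, TRIM21 at 5.53 ± 0.303, RAB3B at 2.44 ± 0.126, FCGRT at 2.39 ± 0.255 and PIGR at 0.421 ± 0.0647, and only RAB3B and FCGRT overlapped. The places of TFRC and FCGRT depend on the transcript length used. With all annotated exons merged (17376 bases in place of 5012 for TFRC) TFRC took place 5 in untreated cells of the first series and place 4 in those of the second, FCGRT moved from place 7 to place 9 in the former, and PIGR stayed at place 10. FCGRT exceeded PIGR per kilobase by 15.8-fold to 92.2-fold over the libraries of the first series and 4.34-fold to 16.6-fold over the others. With merged exons (4052 bases in place of 1511 for FCGRT) these ranges were 6.03-fold to 35.2-fold and 1.66-fold to 6.31-fold.

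**Figure D1:**
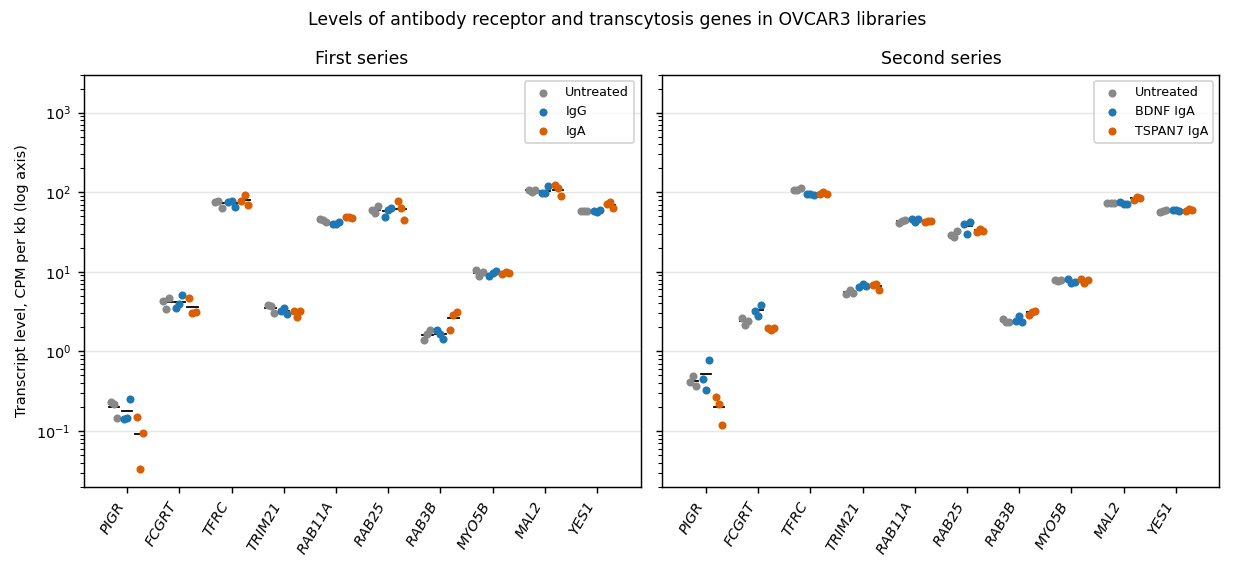
Level of each gene in each library, in CPM per kilobase of the canonical transcript on a log axis, for the first series (left) and the second (right). Points are libraries, 3 per group, and short lines are group means. PIGR lies lowest in every group, down to 0.0332 in IgA replicate 2, and MAL2, TFRC, YES1, RAB11A and RAB25 lie highest.

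All 10 genes passed the filter on low counts in both series and were tested. The fold changes below are log2 differences of fitted levels from edgeR's quasi-likelihood F test, and adjusted p-values are Benjamini-Hochberg values over all genes tested, with a call at under 0.05. Non-specific IgA against IgG called 2 members, RAB3B and YES1, both higher, where 24.2% of the 18012 genes tested were called (12.6% higher and 11.6% lower). Against untreated cells IgA called 1, RAB3B, where 25.0% were called (12.9% higher and 12.1% lower). Both shares of members are below those backgrounds. In RNA from whole cultures, fewer cells that express a gene and less RNA per cell cannot be told apart. IgG against untreated cells called 0 members and 0 genes in all (0%) by edgeR and by DESeq2. At an unadjusted p under 0.05, edgeR gave 0 members and 89 genes, or 0.494%. With no filter on low counts it called 2 genes, neither of them a member.

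Backgrounds were lower for antigen-specific IgA. BDNF IgA against untreated cells called 3 members, with FCGRT and RAB25 higher and TFRC lower, where 7.67% of 18732 genes were called (4.49% higher and 3.18% lower). TSPAN7 IgA against untreated cells called 4, with RAB3B and MAL2 higher and PIGR and TFRC lower, where 8.54% were called (4.46% higher and 4.08% lower). TSPAN7 IgA against BDNF IgA called 4, with RAB3B and MAL2 higher and PIGR and FCGRT lower, where 7.92% were called (3.42% higher and 4.50% lower). The members were split in direction, and their median log2 fold change ranged from -0.024 to 0.070 over the 6 comparisons, beside -0.015 to 0.0047 for all genes. Comparisons that use the same untreated, IgA, BDNF IgA or TSPAN7 IgA libraries share their chance error.

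Some members were separated between groups without overlap in normalised counts, that is, counts divided by TMM effective library size and multiplied by the mean of those sizes. They numbered 2 for IgA against IgG, where 40.3% of genes did not overlap, 3 for IgA against untreated (39.9%), and 0 for IgG against untreated (6.75%). For antigen-specific IgA they numbered 3 for BDNF IgA against untreated (24.8%), 6 for TSPAN7 IgA against untreated (28.4%), and 4 for TSPAN7 IgA against BDNF IgA (23.6%).

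**Figure D2:**
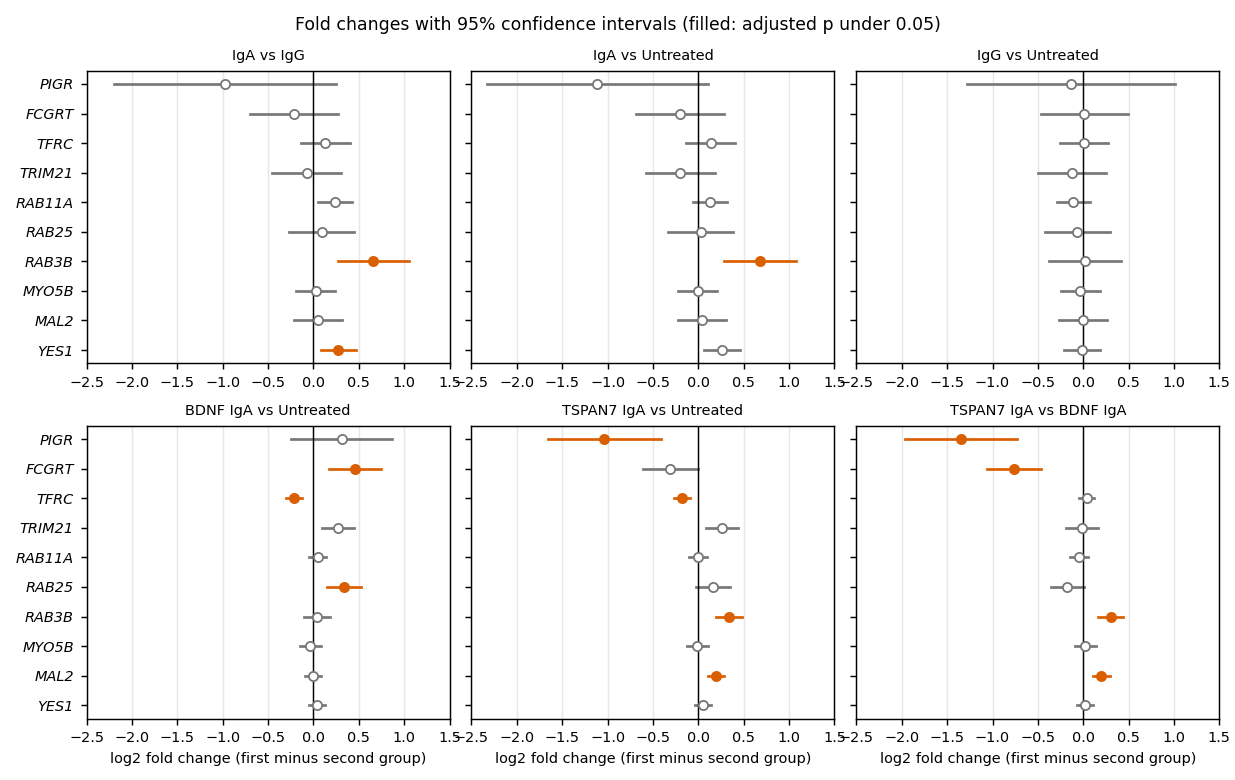
Log2 fold change of each gene, first named group minus second, with its 95% confidence interval, in the 6 comparisons. Filled points have an adjusted p under 0.05. PIGR has the widest intervals, from -2.20 to 0.25 for IgA against IgG, and its interval lies wholly below 0 in both comparisons of TSPAN7 IgA.

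PIGR (ENSG00000162896, chr1:207101867-207119811, minus strand, GRCh37), the receptor for polymeric IgA and IgM, was measured on few reads. In the first series its raw counts were 5 to 39, above the floor of 3 in every library. Normalised counts were 22.4, 4.996 and 14.2 in IgA replicates 1, 2 and 3, against 21.5, 21.9 and 38.4 in IgG and 35.3, 32.8 and 21.8 in untreated cells. The lowest 2 libraries were IgA replicates 2 and 3, but IgA replicate 1 lay inside the range of both other groups. Log2 fold changes were -0.97 for IgA against IgG (SE 0.57, edgeR adjusted p = 0.231) and -1.11 against untreated cells (SE 0.56, edgeR adjusted p = 0.170). At this depth the intervals ran from -2.20 to 0.25 and from -2.33 to 0.11, and each covers both a 4-fold lower level and an equal one. IgG differed from untreated cells by -0.14 (SE 0.53).

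With antigen-specific IgA and its controls PIGR had 20 to 147 raw counts, and TSPAN7 IgA had the lowest values. Normalised counts were 48.9, 40.1 and 21.7 with TSPAN7 IgA, 82.9, 59.9 and 139.7 with BDNF IgA, and 73.9, 89.0 and 65.9 in untreated cells. Every TSPAN7 IgA library lay below every other library of the series, while BDNF IgA spread to both sides of the untreated range. TSPAN7 IgA fell against untreated cells by 1.03 in log2 units (SE 0.30, edgeR adjusted p = 0.0354) and against BDNF IgA by 1.35 (SE 0.30, edgeR adjusted p = 0.00716). BDNF IgA against untreated gave 0.31 (SE 0.27, edgeR adjusted p = 0.550). The call against untreated cells was lost without TSPAN7 IgA replicate 2 (adjusted p = 0.0934) or replicate 3 (0.176, with a log2 fold change of -0.77), or without untreated replicate 1, 2 or 3 (0.0791, 0.134 and 0.0512). The call against BDNF IgA was lost without BDNF IgA replicate 3, the highest library, where the log2 fold change was -0.94 (adjusted p = 0.0821).

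FCGRT (ENSG00000104870, chr19:50010073-50029685, plus strand), the heavy chain of the neonatal Fc receptor, was the member with the lowest adjusted p between the antigen-specific antibodies. Normalised counts were 204, 180 and 248 with BDNF IgA, 125, 120 and 127 with TSPAN7 IgA, and 169, 137 and 154 in untreated cells. The 3 groups did not overlap, with BDNF IgA above and TSPAN7 IgA below the untreated libraries. TSPAN7 IgA against BDNF IgA was -0.77 in log2 units (SE 0.14, edgeR adjusted p = 0.00195), and this call held when each of the 9 libraries was left out in turn. BDNF IgA rose above untreated by 0.46 (SE 0.14, edgeR adjusted p = 0.0443), a call that was lost when any library of the series other than BDNF IgA replicate 2 was left out, with adjusted p from 0.0527 without TSPAN7 IgA replicate 3 to 0.272 without BDNF IgA replicate 3. TSPAN7 IgA against untreated gave -0.31 (SE 0.15, edgeR adjusted p = 0.220). With non-specific antibodies FCGRT had 106 to 312 raw counts, and all groups overlapped. Normalised counts were 248, 163 and 167 with IgA, 189, 208 and 274 with IgG and 230, 183 and 251 in untreated cells. IgG against untreated was 0.012, with a 95% interval of -0.47 to 0.49.

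TFRC (ENSG00000072274, chr3:195739382-195809024, minus strand), whose iron-responsive elements are printed above, fell with both antigen-specific antibodies. Normalised counts were 20279, 19953 and 19684 with BDNF IgA, 20255, 21089 and 20123 with TSPAN7 IgA, and 22755, 22715 and 24063 in untreated cells. Every treated library lay below every untreated one, and the treated groups overlapped each other. The falls were small: by 0.21 with BDNF IgA (SE 0.04, edgeR adjusted p = 0.00233) and by 0.18 with TSPAN7 IgA (SE 0.04, edgeR adjusted p = 0.00839) on the log2 scale, to 0.862 and 0.884 of the untreated mean. Both used the same untreated libraries. The call with TSPAN7 IgA was lost without TSPAN7 IgA replicate 3 (adjusted p = 0.0558) or untreated replicate 3 (0.0617). Non-specific antibodies gave no separation: the values were 13845, 16193 and 12043 with IgA, 13384, 13571 and 11533 with IgG, and 13187, 13864 and 11261 without antibody. IgA against IgG gave 0.13 (SE 0.12, edgeR adjusted p = 0.486).

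TRIM21 (ENSG00000132109, chr11:4406127-4414932, minus strand), the cytosolic antibody receptor, had values higher in every antigen-specific library than in any untreated one, without passing the test. Normalised counts were 525, 577 and 541 with BDNF IgA, 556, 584 and 489 with TSPAN7 IgA, and 438, 482 and 442 in untreated cells. Differences from untreated cells on the log2 scale were 0.27 (SE 0.08, edgeR adjusted p = 0.0518) and 0.26 (SE 0.08, edgeR adjusted p = 0.0607). Both lay close to the threshold, and DESeq2 called the first of them (adjusted p = 0.0400). In the first series TRIM21 ranged from 186 to 259 normalised counts, with all groups overlapping, and IgA against untreated gave -0.20 (SE 0.18, edgeR adjusted p = 0.438). Its 95% interval was -0.58 to 0.18.

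**Figure D3:**
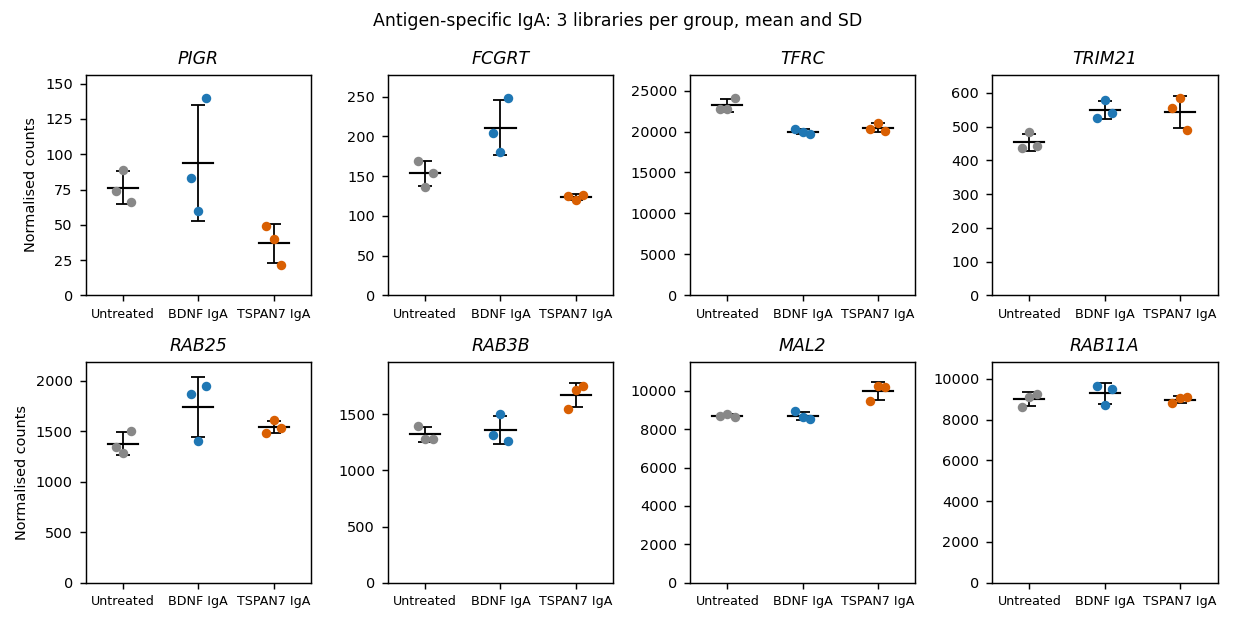
Normalised counts of 8 genes in the second series, on axes that start at 0. Points are the 3 libraries of each group, and bars are the mean and SD. TSPAN7 IgA lies lowest for PIGR and FCGRT and highest for RAB3B and MAL2, and both treated groups lie below the untreated group for TFRC.

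Of the Rab GTPases, RAB3B moved in both series. RAB3B (ENSG00000169213, chr1:52373628-52456372, minus strand) controls regulated exocytosis and binds the pIgR tail. Its normalised counts in the first series were 849, 1290 and 1406 with IgA, 849, 747 and 642 with IgG, and 619, 751 and 835 in untreated cells. IgA replicates 2 and 3 stood well above all other libraries, whereas IgA replicate 1 was level with the highest IgG library. It rose with IgA by 0.66 against IgG (SE 0.18, edgeR adjusted p = 0.0198) and by 0.68 against untreated cells (SE 0.18, edgeR adjusted p = 0.0166). The call against IgG was lost without IgA replicate 2 (adjusted p = 0.0507), IgG replicate 2 (0.0656) or IgG replicate 3 (0.0912), and that against untreated cells without untreated replicate 1 (0.0813) or 2 (0.0501). It was kept in both comparisons without IgA replicate 3. When counts were scaled by library size alone, both were lost (adjusted p = 0.113 and 0.0799).

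In the second series RAB3B was 1549, 1714 and 1755 with TSPAN7 IgA, 1311, 1499 and 1261 with BDNF IgA, and 1399, 1279 and 1283 without antibody. Every TSPAN7 IgA library was above all others, and BDNF IgA overlapped the untreated group. TSPAN7 IgA rose by 0.34 over untreated cells (SE 0.07, edgeR adjusted p = 0.00262) and by 0.30 over BDNF IgA (SE 0.07, edgeR adjusted p = 0.00852), and BDNF IgA over untreated gave 0.040 (SE 0.07, edgeR adjusted p = 0.795). The call over BDNF IgA was lost without BDNF IgA replicate 1 (adjusted p = 0.0560) or 3 (0.0630), or TSPAN7 IgA replicate 2 (0.0607) or 3 (0.0543).

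RAB11A (ENSG00000103769, chr15:66018392-66184327, plus strand), the recycling endosome GTPase, was even between libraries. It was 8309, 8314 and 8216 with IgA, 6914, 6879 and 7281 with IgG, and 7890, 7616 and 7227 in untreated cells. The IgA libraries lay above all others, with a log2 difference of 0.24 from IgG (SE 0.08, edgeR adjusted p = 0.0575) and 0.13 from untreated (SE 0.08, edgeR adjusted p = 0.294), neither of which passed. The difference from IgG was called by DESeq2 (adjusted p = 0.0204) and by edgeR among genes with a mean of at least 50 counts (adjusted p = 0.0485). With antigen-specific IgA all groups overlapped between 8630 and 9667, and no log2 difference was larger than 0.05 in size. RAB11A has a close paralog, RAB11B, and counting could split reads of such a pair. RAB11B, shown for that reason, was lower by 0.17 with TSPAN7 IgA than without antibody (SE 0.05, edgeR adjusted p = 0.0370).

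RAB25 (ENSG00000132698, chr1:156030951-156040295, plus strand), the epithelial relative of RAB11A, rose with BDNF IgA. The values were 1870, 1401 and 1955 with BDNF IgA, 1489, 1609 and 1533 with TSPAN7 IgA, and 1344, 1283 and 1504 without antibody. BDNF IgA replicate 2 lay within the untreated range, so the groups overlapped. BDNF IgA was higher by 0.34 in log2 units (SE 0.09, edgeR adjusted p = 0.0201), and the call was lost without BDNF IgA replicate 1 (adjusted p = 0.112) or 3 (0.136) or untreated replicate 1 (0.0838) or 2 (0.111). TSPAN7 IgA gave 0.16 over untreated (SE 0.09, edgeR adjusted p = 0.298) and -0.18 against BDNF IgA (SE 0.09, edgeR adjusted p = 0.248). Without BDNF IgA replicate 2 the latter was -0.31 and was called (adjusted p = 0.000825). In the first series RAB25 spread most within the IgA group, at 2976, 2423 and 1749, with 1918 to 2569 in the other 6 libraries, and no comparison passed.

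MYO5B (ENSG00000167306, chr18:47349159-47721534, minus strand), the motor that moves RAB11A vesicles, was the member with no call and no separation of groups in any of the 6 comparisons. Its normalised counts were 2955 to 3553 (first series) and 2904 to 3318 (second). The 95% intervals of its log2 fold changes lay within -0.25 to 0.24 and -0.15 to 0.14.

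MAL2 (ENSG00000147676, chromosome 8), the raft protein of transcytosis, rose with TSPAN7 IgA. Values were 9448, 10278 and 10208 with TSPAN7 IgA, 8938, 8628 and 8508 with BDNF IgA, and 8682, 8782 and 8643 without antibody. All TSPAN7 IgA libraries were above the other 6, while BDNF IgA straddled the untreated libraries. The rise was 0.20 over untreated (SE 0.04, edgeR adjusted p = 0.00571) and 0.20 over BDNF IgA (SE 0.04, edgeR adjusted p = 0.00689), or 1.15-fold in each case. Both calls were lost without TSPAN7 IgA replicate 2 (adjusted p = 0.0536 and 0.0648). In the first series MAL2 ran from 8916 to 12158 with IgA and from 9695 to 11801 in the other libraries, and IgA against IgG gave 0.05 (SE 0.12, edgeR adjusted p = 0.809).

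YES1 (ENSG00000176105, chr18:721588-812547, minus strand) had a nearly constant level without IgA in the first series. It was 9434, 9480 and 9469 in untreated cells, 9451, 9115 and 9574 with IgG, and 11377, 12269 and 10369 with IgA. All 3 IgA libraries lay above the other 6. IgA rose over IgG by 0.27 (SE 0.09, edgeR adjusted p = 0.0426), and the difference from untreated cells, 0.26 (SE 0.09, edgeR adjusted p = 0.0501), lay just past the threshold. The call against IgG was lost when any library other than IgA replicate 3 was left out, with adjusted p from 0.0547 without untreated replicate 3 to 0.161 without IgG replicate 2. Without IgA replicate 3, YES1 was called against untreated cells too (adjusted p = 0.0137, log2 0.32). With library size alone in place of TMM factors the difference from IgG was 0.05 (adjusted p = 0.829), since that scaling moved the median over all genes from -0.015 to -0.25. With antigen-specific IgA and its controls YES1 ranged from 10946 to 11890 with all groups overlapping, and BDNF IgA and TSPAN7 IgA differed from untreated by 0.04 and 0.05 (SE 0.04 each, edgeR adjusted p = 0.685 and 0.522).

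**Figure D4:**
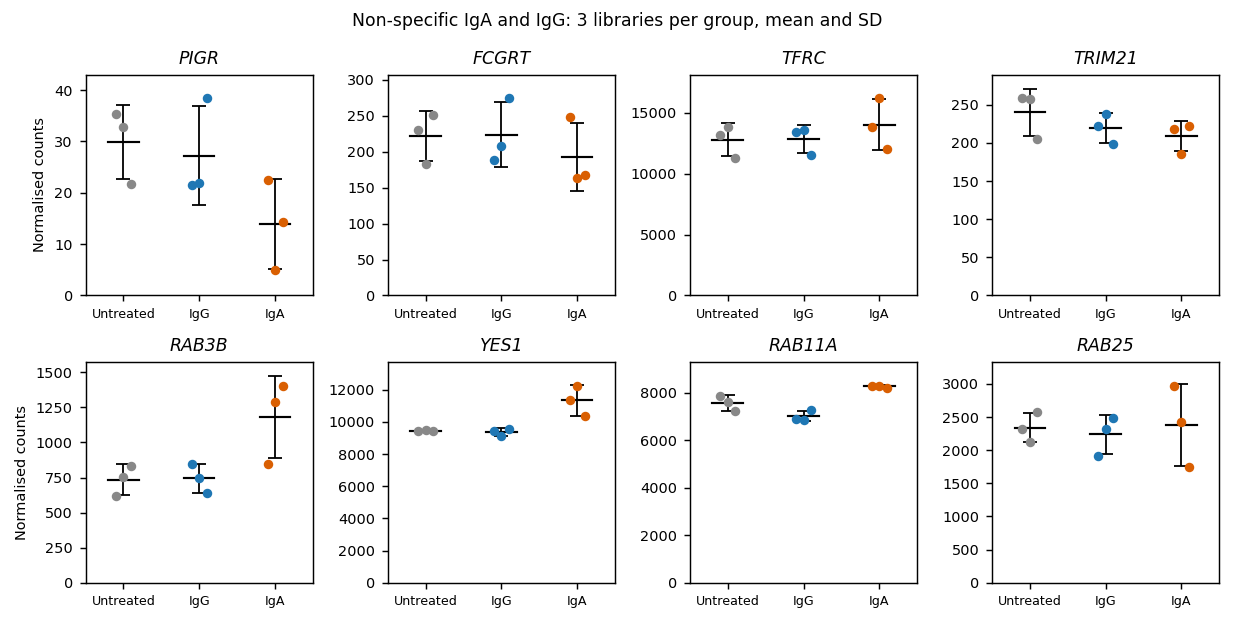
Normalised counts of 8 genes in the first series, on axes that start at 0. Points are the 3 libraries of each group, and bars are the mean and SD. The IgA libraries lie above the others for YES1 and RAB11A, IgA replicates 2 and 3 do so for RAB3B, and the 3 groups overlap for PIGR, FCGRT, TFRC, TRIM21 and RAB25.

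Other genes for antibody binding were for the most part not detectable. Of 27 further genes, which comprise the Fc gamma, Fc alpha and Fc epsilon receptors, the Fc receptor-like family and soluble or carbohydrate-binding partners of antibodies, 18 had at most 3 counts in every library of the first series, 8 of them with 0 throughout, and 18 had so in the second, 14 of them with 0 throughout. FCAR, the Fc alpha receptor of myeloid cells, FCER1A and FCGR1B had 0 counts in all 18 libraries, which allows a level of up to 0.107 CPM in the shallowest. FCGR2A had 3 to 56 counts (first series) and 21 to 86 (second), and its near-identical relative FCGR2C had at most 6. FAIM3, the IgM receptor now named FCMR, had 2 to 19 and 9 to 23 counts. TFR2, the other transferrin receptor, had 19 to 64 and 22 to 38. IGJ, the joining chain of polymeric IgA and now named JCHAIN, had at most 8 and at most 3 counts, and IGHA1 and IGHG1 had 0 throughout. The partners that were abundant were B2M, with 8019 to 29115 counts, and LGALS3, a galectin that binds glycans of antibodies, with 1444 to 3184. B2M rose in 4 of the 6 comparisons. It was higher by 0.46 with IgA against IgG and by 0.42 against untreated cells on the log2 scale, by 0.44 with BDNF IgA and by 0.28 with TSPAN7 IgA. The same contrasts for FCGRT, its partner chain, gave -0.21, -0.20, 0.46 and -0.31, of which the third passed.

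**Figure D5:**
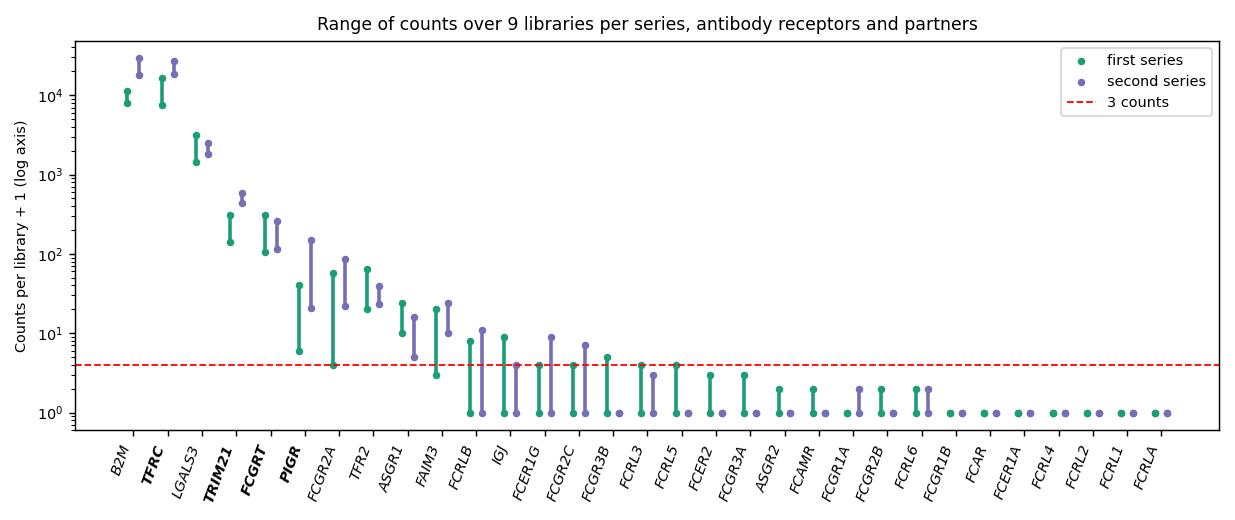
Range of raw counts per library, plus 1, on a log axis, for PIGR, FCGRT, TFRC and TRIM21 (bold) and 27 further antibody receptor genes and partners. Bars run from the lowest to the highest of 9 libraries in each series, and the dashed line marks 3 counts. B2M, TFRC, LGALS3, TRIM21 and FCGRT exceed 100 counts in every library, and most Fc receptor genes lie at or near 0.

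The pathways around the members were described from 7 lists with 155 genes in the files, of which 126 were tested in each comparison. With IgA, 28 were higher and 13 lower than with IgG, and 29 higher and 14 lower than in untreated cells, or 32.5% and 34.1% of those tested, beside 24.2% and 25.0% of all genes. IgG against untreated cells called 0 of 126. BDNF IgA called 10 higher and 5 lower (11.9%, beside 7.67% of all genes), TSPAN7 IgA 12 higher and 8 lower (15.9%, beside 8.54%), and TSPAN7 IgA against BDNF IgA 7 higher and 6 lower (10.3%, beside 7.92%). These backgrounds include genes with few counts. Among genes with a mean of at least 50 counts, the shares called were larger. IgA called 2206 higher and 2096 lower of 13514 against IgG, and 2244 and 2150 against untreated cells. Of 14085 such genes BDNF IgA called 868 and 658, TSPAN7 IgA 833 and 850, and TSPAN7 IgA against BDNF IgA 641 and 874. List and background shares were thus not matched for level. The median log2 fold change of the 126 was 0.18 and 0.14 for the 2 contrasts of IgA and between -0.0016 and 0.0096 elsewhere. With library size alone as the scaling, the share of higher calls among all genes fell from 51.9% to 19.4% for IgA against IgG. For IgA against untreated cells it fell from 51.4% to 23.3%. The lists were not recounted with that scaling, so their split in the first series may depend on it too.

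Among 9 tested factors known to act at the PIGR gene, 3 were called with IgA, the NF-kB subunits RELB and NFKB1 and the interferon regulatory factor IRF1. With IgA, RELB rose by 1.74, NFKB1 by 1.11 and IRF1 by 1.19 against IgG, all 3 without overlap between groups, and by 1.93, 1.18 and 1.26 against untreated cells. No other of the 9 was called in these contrasts. RELB rose by 0.36 with BDNF IgA against untreated cells, and IRF1 rose by 0.17 with TSPAN7 IgA. The edgeR test called 0 of the 9 between the antigen-specific antibodies.

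The endosomal sorting list held the effectors of RAB11A and RAB25. Of 44 tested genes, 9 were higher and 6 lower with IgA in each of its 2 contrasts. RAB11FIP4, a Rab11 effector, had the largest fall of the list. It fell by 2.01 against IgG, with means of 2201 and 8889 normalised counts, and fell by 2.08 against untreated cells. RAB11FIP2 fell by 0.83 against untreated cells, and RAB17, an epithelial GTPase of transcytosis, fell by 1.15 and 1.09. CAV1, the coat protein of caveolae, rose by 1.22 and 1.44. In the second series 2 were higher and 4 lower with BDNF IgA, 3 higher and 5 lower with TSPAN7 IgA, and 3 higher and 2 lower between them. RAB11FIP4 fell with TSPAN7 IgA by 0.73 against untreated cells (SE 0.06) and by 0.64 against BDNF IgA (SE 0.06). RAB3D, the close relative of RAB3B in exocytosis, fell by 0.17 with BDNF IgA and by 0.22 with TSPAN7 IgA. Of the class V myosins, MYO5A fell by 0.25 with BDNF IgA and MYO5C by 0.22 with TSPAN7 IgA, with MYO5A also lower there, by 0.17, while MYO5B was not called.

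For apical delivery, tethering and fusion 36 genes were tested for non-specific and 37 for antigen-specific antibodies. IgA gave 7 higher and 4 lower against IgG, and 7 higher and 5 lower against untreated cells, and the polarity proteins PARD6A and PARD6B fell by 0.84 and decreased by 0.89 against IgG. The second series gave 1 higher with BDNF IgA, 1 higher and 2 lower with TSPAN7 IgA, among them the exocyst subunit EXOC6 with a fall by 0.23, and 1 higher and 1 lower between the antibodies. ANXA2, an annexin of apical transport, was 0.20 higher with TSPAN7 IgA than with BDNF IgA.

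The iron list bears on TFRC. Of 11 tested genes 5 were higher and 1 lower with IgA against IgG, and 6 higher and 1 lower against untreated cells. HMOX1, which releases iron from haem, rose by 1.49 and 1.54, and SLC40A1, the iron exporter ferroportin, fell by 1.71 and 1.66, while TFRC was not called. With BDNF IgA 3 were higher and 1 lower, and SLC40A1 rose by 0.59. With TSPAN7 IgA 1 was higher and 1 lower. ACO1, an iron regulatory protein that binds the TFRC elements, was lower in both contrasts with untreated cells, as TFRC was, with log2 fold changes of -0.29 (SE 0.05, edgeR adjusted p = 0.00102) and -0.26 (SE 0.05, edgeR adjusted p = 0.00279). Against BDNF IgA, TSPAN7 IgA gave 0 higher and 2 lower. SLC40A1 fell by 0.85, and STEAP3, an endosomal ferrireductase, fell by 0.48. With non-specific IgA, ACO1 was higher, by 0.33 against IgG and 0.38 against untreated cells. A link between the levels of ACO1 and TFRC was not tested.

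The Src family kinases and regulators around YES1 gave 3 higher and 2 lower of 12 in both contrasts of IgA. In the second series they gave 1 higher with BDNF IgA, 3 higher with TSPAN7 IgA, and 1 in each direction between them. LYN rose by 0.29 and EGFR, a receptor that signals with Src kinases, also by 0.29 with TSPAN7 IgA, whereas the log2 fold change of FRK against BDNF IgA was -0.31. Of 8 TRIM21 partners, which are ubiquitin enzymes, the segregase VCP and the proteasome subunit PSMD14, edgeR called 0 for IgA or BDNF IgA against their controls. The ubiquitin-conjugating enzyme UBE2D1 was the 1 called with TSPAN7 IgA against untreated cells, higher by 0.18, and VCP and PSMD14 were higher by 0.19 and 0.28 against BDNF IgA. Among the 27 antibody receptor genes 6 were tested for non-specific and 5 for antigen-specific antibodies, and B2M was the called one in each of the 4 contrasts with a call.

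Markers of other cells, named here after their values were seen, were set beside these results. With IgA, COL1A1 and COL1A2 were higher than with IgG by 0.64 and 0.66. Against untreated cells 0 of the 2 tested fibroblast markers were called. The summed fibroblast level was 67.7 to 137.6 CPM with IgA against 58.4 to 64.7 with IgG and 62.7 to 69.6 without antibody. DCN and PDGFRB had at most 7 counts in that series. CDH5, an endothelial cadherin, was higher with IgA than in untreated cells, at 1 to 40 raw counts and means of 23.3 and 3.10 normalised counts, with CLDN5 at 0 in all 9 libraries of that series and VWF at 3 to 57 counts. For IgA against IgG, 0 of the 2 tested endothelial markers were called. PTPRC, a marker of blood cells, was higher with TSPAN7 IgA than in untreated cells, at means of 19.7 and 7.40 normalised counts, with ITGAM at 0 to 2 counts. Between TSPAN7 IgA and BDNF IgA, 0 of the 4 tested myeloid markers were called. The summed myeloid level was 1.77 to 2.16 CPM with TSPAN7 IgA and 1.00 to 2.00 CPM in untreated cells. Among epithelial markers, 2 were higher and 2 lower for IgA against IgG, with log2 fold changes of 0.43 for KRT7, 0.34 for PAX8, -0.37 for KRT8 and -1.17 for WT1. With antigen-specific IgA the epithelial list gave 3 higher for BDNF IgA, 1 higher and 2 lower for TSPAN7 IgA, and 1 higher and 3 lower between them. KRT7 was higher in each of these contrasts, by 0.24, 0.54 and 0.30, and the log2 fold change of WT1 was -0.30 and -0.31 in the latter pair, while that of MUC16 was -0.47 for TSPAN7 IgA against untreated cells and -0.66 against BDNF IgA. The log2 fold change of CDH1 was -0.35 for TSPAN7 IgA against BDNF IgA and 0.26 for BDNF IgA against untreated cells. The part of these markers in the changes of the members was not tested.

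The genes whose levels followed a member most closely were found by Pearson's r of log2 CPM over the 9 libraries of a series, among 13514 or 13515 genes in the first and 14082 in the second. These values are descriptions over points that share groups, and the highest of so many values is large in any 9 libraries. For RAB3B they were MAD2L2, FAM83A and ZNF654 in the first series (r from 0.973 to 0.979) and SPINK6, TUBGCP4 and DNM1L in the second (0.977 to 0.982). For YES1 they were RNF144B, LIPA and SAV1 (0.974 to 0.991), then ZNF639, SCOC and HMGA2 (0.934 to 0.974). FCGRT was followed by ALDH6A1, KLK6 and CDH1 (0.933 to 0.953), then by DDIT4L, TJP3 and CHI3L1 (0.974 to 0.985). TFRC was followed by IFFO2, TYMS and PTDSS1 (0.976 to 0.987), then by PRKRA, RP11-62F24.2 and ATP5L (0.962 to 0.976). MAL2 was followed by GALNT3, PTPLB and TARS (0.956 to 0.969), then by SERPINB5, PHF6 and UCHL5 (0.964 to 0.975). RAB25 was followed by AGTRAP, UBE2E2 and CMTM8 (0.958 to 0.994), then by HMGN4, TMED10 and ASAH1 (0.964 to 0.976). RAB11A was followed by ING2, EIF3E and IPO7 (0.940 to 0.950), then by LAMP2, TM9SF3 and RCN1 (0.923 to 0.948). For TRIM21 the leading gene was DNAJC22 in the first series (0.961) and SIRT6 in the second (0.967), for PIGR it was CIRBP (0.974) and FANCF (0.988), and for MYO5B it was KPNA5 (0.943) and FAM86EP (0.928). Of the 3 genes listed per member, 0 recurred for the same member in the other series.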

How the data were processed

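The measurement was RNA-seq of OVCAR3 cells, as 18 libraries in 6 groups of 3. The authors deposited raw read counts per gene symbol, as 1 table per series, from paired-end libraries of a kit for degraded RNA. The submitters' processing notes name bcl2fastq 2.20.0.422, cutadapt 1.8.1, HTSeq 0.6.1 and hg19, whereas the study's methods name STAR and featureCounts, so the counter is uncertain, and strand use is not given in the sources used here. The labels give 24 h of incubation and a description elsewhere in the study gives a shorter time. Of the 57820 rows for the second series, 2055 repeated another exactly, with 1.99% to 2.46% of counts, and the repeats were removed.

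The members and gene lists were chosen with earlier results of these data known. Genes were filtered (filterByExpr), scaled by TMM and tested, two-sided, with edgeR 4.0.16 (R 4.3.3, quasi-likelihood F test, 9 libraries and 3 groups per series, no covariate). Benjamini-Hochberg adjustment ran over all genes tested, with a threshold of 0.05. A prior count of 2 was used only for the log2 CPM of the correlations. The SE is the log2 fold change divided by the root of F. On simulated counts with 200 genes changed by 1.5 on the log2 scale, 85.5% were recovered for IgA against IgG (17575 genes, 4.47% of calls false) and 96% for BDNF IgA against untreated cells (18404 genes, 7.25% false). Each comparison named up to 5 called list genes per direction with the largest changes, no overlap, and a mean normalised count of 50 or more in either group. RAB11B, UBE2D1, IRF1 with TSPAN7 IgA, MYO5A with TSPAN7 IgA, ACO1 with non-specific IgA and the marker genes are named outside that rule. Some genes that the rule would name are not reported here. Lengths and positions came from GENCODE v44 mapped to GRCh37, and promoters from RefSeq. Alternatives were DESeq2 1.42.0, RLE scaling, library size alone, other filters, only the libraries compared, a replicate block, a threshold of 0.01, repeated rows kept, leaving out mitochondrial and ribosomal genes or each library in turn and, chosen after seeing the data, merged exon length. Replicates differed by a chi-square per degree of freedom of 4.16 to 259, well above sampling noise.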

Additional observations from a re-analysis of the deposited data

How the results depend on the processing

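The 60 member values (10 genes in 6 comparisons, 14 of them called) were recomputed to give 1047 alternative values. Of these 903 kept direction and side of the threshold, 61 lost a call, 16 gained one and 67 changed sign, 0 of those among called values, and no value that changed sign exceeded 0.207 in size. The cause was not tested for any of these. With library size alone, members called for IgA were 0 against IgG and 0 against untreated cells, and log2 values turned to -0.092 (TFRC), -0.13 (RAB25), -0.21 (MYO5B) and -0.17 (MAL2) against IgG, to -0.060 (TFRC), -0.081 (RAB11A), -0.16 (RAB25) and -0.16 (MAL2) against untreated cells, to 0.017 (MAL2) and 0.013 (YES1) for IgG against untreated cells, and to 0.014 (MAL2) for BDNF IgA against untreated cells. With repeated rows kept, MAL2 was 0.0060 for the latter. Members called for IgA against IgG were 3 with DESeq2, 3 with a mean of at least 50 counts, 1 with no filter, 1 with only the 6 libraries compared and 0 at a threshold of 0.01. Those for IgA against untreated cells were 2 with DESeq2, 2 with a mean of at least 50 counts, 2 without mitochondrial and ribosomal genes and 0 at 0.01. Those for BDNF IgA against untreated cells were 1 with only 6 libraries and 1 at 0.01. Deviations of same-numbered libraries correlated at -0.105 to 0.517 (first series) or -0.0741 to 0.158 (second), and 7 of 18 libraries correlated best with their own number. For replicates 1, 2 and 3 the values were 0.158, 0.122 and 0.517 between IgG and untreated cells. They were -0.105, -0.0790 and -0.0520 between IgA and IgG, and 0.0440, 0.0310 and 0.0517 between IgA and untreated cells. The labels do not say whether same-numbered libraries were paired, and these values do not settle it. With the replicate block the members called were 1 (IgA against IgG), 0 (IgA against untreated cells), 0 (BDNF IgA), 0 (TSPAN7 IgA) and 0 (TSPAN7 IgA against BDNF IgA). The 1 was TFRC (log2 0.44, adjusted p = 0.0457), not called otherwise, and RAB3B (adjusted p = 0.174) and YES1 (0.122) were lost. Called genes of the 7 pathway lists went from 41 to 17, 43 to 12, 15 to 2, 20 to 7 and 13 to 1 in the same order. Over all genes the block gave 899 higher and 819 lower calls in place of 2265 and 2095 for IgA against IgG, 519 and 347 in place of 2316 and 2187 for IgA against untreated cells, 169 and 61 in place of 841 and 596 for BDNF IgA, 335 and 232 in place of 836 and 764 for TSPAN7 IgA, and 5 and 11 in place of 641 and 843 for TSPAN7 IgA against BDNF IgA. Log2 values in the block turned to 0.046 (TRIM21) and -0.035 (MYO5B) for IgA against IgG, -0.045 (RAB25) and -0.038 (MAL2) for IgA against untreated cells, -0.21 (TFRC) and 0.012 (MYO5B) for IgG against untreated cells, 0.027 (MAL2) for BDNF IgA, 0.038 (RAB11A) for TSPAN7 IgA, and 0.0044 (RAB11A) and 0.048 (RAB25) for TSPAN7 IgA against BDNF IgA.

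With each library left out in turn, members called ranged from 0 to 2 (IgA against IgG), 0 to 2 (IgA against untreated cells), 0 to 0 (IgG against untreated cells), 1 to 3 (BDNF IgA), 2 to 5 (TSPAN7 IgA) and 2 to 5 (TSPAN7 IgA against BDNF IgA). The 24 uncalled values that changed sign had these ranges. For IgA against IgG they were -0.052 to 0.16 (MAL2), -0.036 to 0.080 (MYO5B), -0.10 to 0.27 (RAB25) and -0.14 to 0.0025 (TRIM21). For IgA against untreated cells they were -0.059 to 0.16 (MAL2), -0.073 to 0.045 (MYO5B) and -0.17 to 0.21 (RAB25). For IgG against untreated cells they were -0.16 to 0.12 (FCGRT), -0.11 to 0.042 (MAL2), -0.094 to 0.024 (MYO5B), -0.46 to 0.0078 (PIGR), -0.14 to 0.036 (RAB25), -0.087 to 0.12 (RAB3B), -0.080 to 0.078 (TFRC) and -0.027 to 0.0086 (YES1). For BDNF IgA they were -0.023 to 0.011 (MAL2), -0.085 to 0.0061 (MYO5B), -0.095 to 0.55 (PIGR) and -0.041 to 0.088 (RAB3B). For TSPAN7 IgA they were -0.054 to 0.038 (MYO5B) and -0.032 to 0.019 (RAB11A), and against BDNF IgA -0.019 to 0.074 (MYO5B), -0.066 to 0.057 (TRIM21) and -0.00035 to 0.046 (YES1). Depth limits PIGR most, at 5 to 39 counts a library with non-specific antibodies.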
